A study of Mus musculus with 12 samples.

Results

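The genes described are 29 genes of cholesterol and fatty acid synthesis, taken by symbol from the count data of a mouse RNA sequencing study of Impdh2 deletion. All 29 were present among the 51826 gene identifiers of the forelimb data and the 55401 of the culture data, and all 29 passed the filter on low counts in both. They comprised 6 mevalonate genes (Hmgcs1, Mvk, Pmvk, Mvd, Idi1 and Fdps), 3 genes of the squalene and lanosterol steps (Fdft1, Sqle and Lss) and 8 genes of the steps from lanosterol to cholesterol (Cyp51, Tm7sf2, Msmo1, Nsdhl, Hsd17b7, Ebp, Sc5d and Dhcr7). The rest were 5 regulators and carriers (Insig1, Srebf1, Srebf2, Scap and Stard4) and 7 fatty acid genes (Acly, Acaca, Acacb, Fasn, Elovl6, Scd1 and Scd2).

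The study held 12 libraries in 6 groups of 2. Forelimbs of E12.5 embryos were WT or Prx-cKO, in which Impdh2 was deleted in limb mesenchymal progenitors, so other cell types of the limb kept the gene. Cultures were grown from the bone marrow of WT or LysM-cKO mice, the latter with Impdh2 deleted in myeloid cells. All cultures shared 3 days with L929 supernatant as a source of M-CSF (equivalent to 20 ng/ml), and the protocol then gives 40 ng/ml of RANKL, the cytokine that drives osteoclast formation. R40D3 and R0D3 are the titles of the cultures. Every culture carries the same treatment label and the cell type osteoclast, and nothing says what the titles stand for, so they serve as names only. The product of Impdh2 works in the synthesis of guanine nucleotides, and the question of the design was what its loss changes in the limb and in osteoclast cultures.

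Cells build cholesterol from acetyl-CoA through mevalonate, squalene and lanosterol, and build fatty acids from the same acetyl-CoA through malonyl-CoA. When membrane sterol is low, the carrier Scap takes the SREBP transcription factors (encoded by Srebf1 and Srebf2) from the endoplasmic reticulum to the Golgi, where they are cut and released to switch on most genes of both pathways. When sterol is high, Insig proteins hold Scap back. In bone, intermediates of the mevalonate branch are known for their role in osteoclasts, because bisphosphonate drugs act on farnesyl diphosphate synthase, the product of Fdps.

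SREBPs act at sterol response elements together with the factor NF-Y, which binds the letters CCAAT. Promoters were therefore searched on both strands for 3 motifs: the sterol element form TCACNCCAC, CCAAT, and the E-box CACGTG, which SREBPs can also bind. The promoters were the RefSeq windows (GRCm38.p6) of 250 bases before to 50 after each start site, and 23 of the 29 genes had at least 1 window. Fdps, Fdft1, Sqle, Stard4, Scd1 and Scd2 had none. The 200 bases before the start site are shown 5′ to 3′ for 5 genes that fell between cultures and for Acly and Ebp, which did not pass the test, so that the promoters can be set beside the values that follow. None of these stretches lies within an exon of GENCODE M21. Capitals mark every motif match within the stretch. The searched windows are longer, and the single CCAAT of Acly lies outside its stretch. The Hmgcs1 stretch is chr13:119690151-119690350 on the plus strand, the Mvk stretch chr5:114444069-114444268 on the plus strand, and the Mvd stretch chr8:122443423-122443622 on the minus strand. Sc5d lies at chr9:42264301-42264500, Fasn at chr11:120824548-120824747, Acly at chr11:100528001-100528200 and Ebp at chrX:8193513-8193712, all on the minus strand.
Hmgcs1: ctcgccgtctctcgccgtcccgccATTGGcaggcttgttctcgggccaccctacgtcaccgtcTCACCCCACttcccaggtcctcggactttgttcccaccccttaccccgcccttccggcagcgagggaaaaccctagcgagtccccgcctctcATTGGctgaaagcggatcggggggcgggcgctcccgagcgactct
Mvk: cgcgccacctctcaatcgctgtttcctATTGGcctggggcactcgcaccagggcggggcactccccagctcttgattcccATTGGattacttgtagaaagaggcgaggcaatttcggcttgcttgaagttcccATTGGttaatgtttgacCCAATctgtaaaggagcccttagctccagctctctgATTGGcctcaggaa
Mvd: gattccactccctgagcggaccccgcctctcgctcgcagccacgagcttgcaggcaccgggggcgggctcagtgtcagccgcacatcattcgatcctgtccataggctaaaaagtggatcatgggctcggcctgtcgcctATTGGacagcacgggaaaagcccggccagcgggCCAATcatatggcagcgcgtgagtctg
Sc5d: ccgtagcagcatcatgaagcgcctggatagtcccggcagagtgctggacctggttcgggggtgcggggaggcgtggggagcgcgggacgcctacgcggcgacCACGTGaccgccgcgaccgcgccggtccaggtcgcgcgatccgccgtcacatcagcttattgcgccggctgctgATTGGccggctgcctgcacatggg
Fasn: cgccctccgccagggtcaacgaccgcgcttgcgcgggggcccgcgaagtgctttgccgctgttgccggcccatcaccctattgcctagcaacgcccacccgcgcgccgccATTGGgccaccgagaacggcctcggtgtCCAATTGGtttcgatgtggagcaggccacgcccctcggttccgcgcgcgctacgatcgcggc
Acly: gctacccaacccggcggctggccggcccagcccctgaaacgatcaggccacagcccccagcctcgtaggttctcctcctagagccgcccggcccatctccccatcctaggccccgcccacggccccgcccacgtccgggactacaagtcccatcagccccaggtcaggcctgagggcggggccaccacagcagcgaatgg
Ebp: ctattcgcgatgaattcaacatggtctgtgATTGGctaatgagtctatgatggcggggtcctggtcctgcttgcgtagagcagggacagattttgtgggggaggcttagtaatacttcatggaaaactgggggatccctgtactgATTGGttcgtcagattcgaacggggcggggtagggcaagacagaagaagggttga

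The TCACNCCAC form was found in 1 promoter, that of Hmgcs1, where it starts 137 bases before the start site. This was 3.45% of the 29 windows of these genes, against 1.24% of all 32851 RefSeq mouse promoter windows. CCAAT was found on either strand in 21 of the 29 windows (72.4%), against 37.4% of all windows. Counted by gene, 20 of the 23 genes had a match, against 41.0% of the other 27002 genes with a promoter. Acaca, Elovl6 and Scap had no CCAAT in any window. CCAAT was present in 11 of the 12 genes that passed the WT culture test described below and in 9 of the 11 that did not (Nsdhl with 4 matches and Ebp with 2 among them), and Elovl6, with the largest called fall, had none. Mvk held the most, with 5 matches, and in Fasn a pair on opposite strands overlap as CCAATTGG. CACGTG was found in 6 of the 29 windows (20.7%), against 7.15% of all windows, and belonged to Hsd17b7, Sc5d, Dhcr7, Insig1 and Scap. In Sc5d it starts 98 bases before the start site. These matches describe letters and are not evidence of binding. No library measured binding, and the RefSeq start of Acaca, Acacb, Cyp51, Msmo1 and 1 window of Pmvk lies inside the GENCODE gene model.

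**Figure D1:**
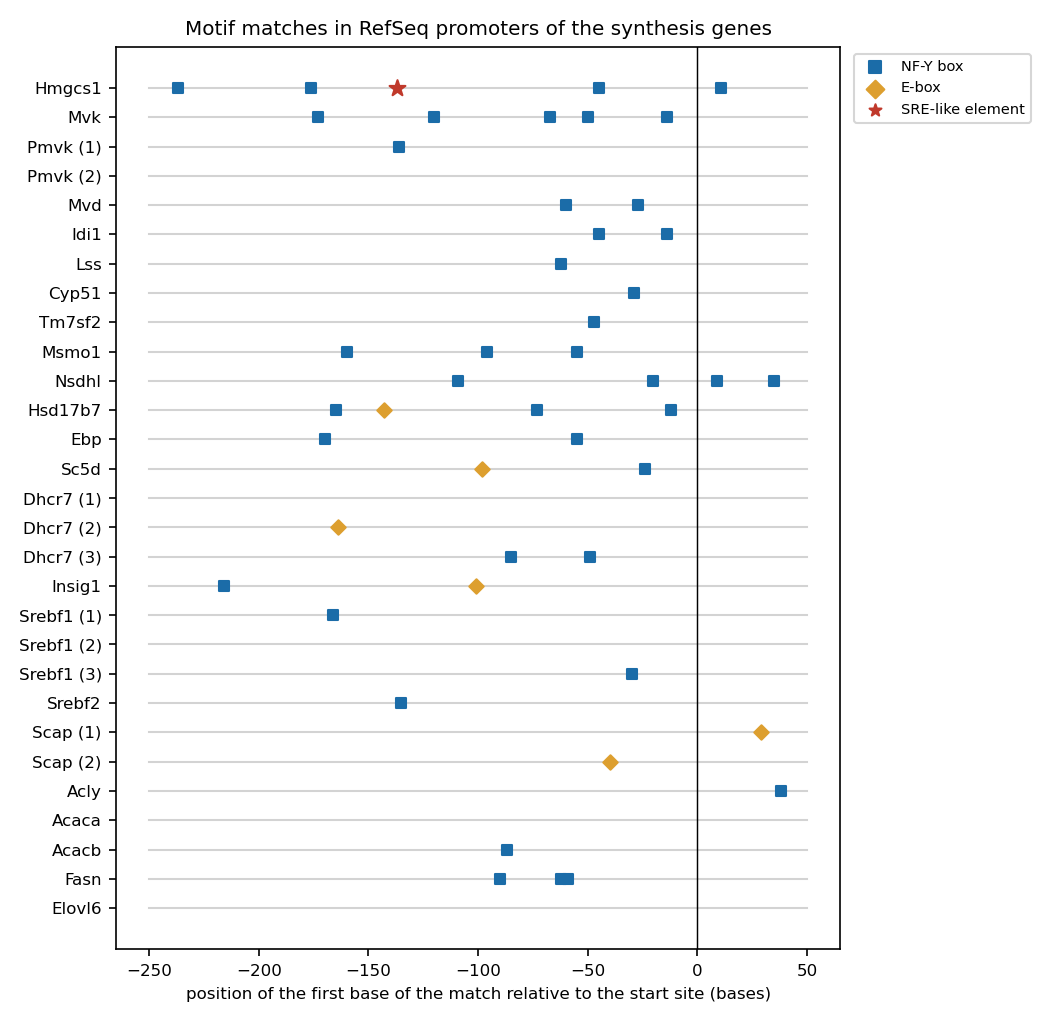
Motif matches in the RefSeq promoter windows of the 23 genes with an entry, by distance in bases from the start site (x axis), 1 line for each window. Squares mark CCAAT, diamonds CACGTG and the star TCACNCCAC, which occurs only in Hmgcs1. CCAAT squares stand on 21 of the 29 lines.

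Library totals lay between 28892215 and 69466572 counts for forelimbs and between 16009146 and 19221865 counts for cultures. Levels are given as CPM, the count scaled to a common library size. Impdh2 itself stood at 25.7 and 27.7 CPM in WT and 7.72 and 8.38 in LysM-cKO for R40D3. For R0D3 the WT libraries held 22.3 and 28.2 CPM and the LysM-cKO libraries 7.36 and 7.03. WT forelimbs held 260.4 and 272 CPM and Prx-cKO forelimbs 169.7 and 199. Of its windows of 50 bases, 39.3% also occur in the pseudogene Impdh2-ps. Every knockout library thus lay below both WT libraries of its comparison. Markers of osteoclasts (10 genes) summed to 26292–38759 CPM in WT R40D3 and to 352–471 in WT R0D3, where 2 of the 10 were at 0, against 8516–8657 CPM for 8 macrophage markers. By these markers the R0D3 cultures do not match the label osteoclast. LysM-cKO replicate 2 stood apart in stromal fibroblast markers (8 genes), at 491 and 581 CPM in R40D3 and R0D3 against at least 1400 in the other 6 culture libraries. Nothing in the labels says that libraries of a group came from separate animals, so the p-values measure only the spread between these samples.

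The clearest difference for these genes lay between the cultures. In WT, 15 of the 29 fell in R40D3 relative to R0D3 and 0 rose, at an adjusted p under 0.05 in edgeR's quasi-likelihood test. Among all 14030 genes tested 5.52% fell and 11.4% rose. The log2 fold changes of the called genes ran from −1.21 (Elovl6) to −0.60 (Mvk), the median over the 29 was −0.66, and that over all genes was 0.01. In all, 26 of the 29 values were below 0. The 17 enzymes of cholesterol synthesis together summed to 948–1062 CPM in WT R0D3 and 557–730 CPM in WT R40D3, and to 904–984 and 628–685 CPM in the LysM-cKO cultures. Replicate numbers pair the culture libraries, and with the number as a block 19 fell and 1 rose, with 11.6% and 16.7% of all genes. Fewer cells of a type and less RNA per cell cannot be told apart in such bulk libraries.

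**Figure D2:**
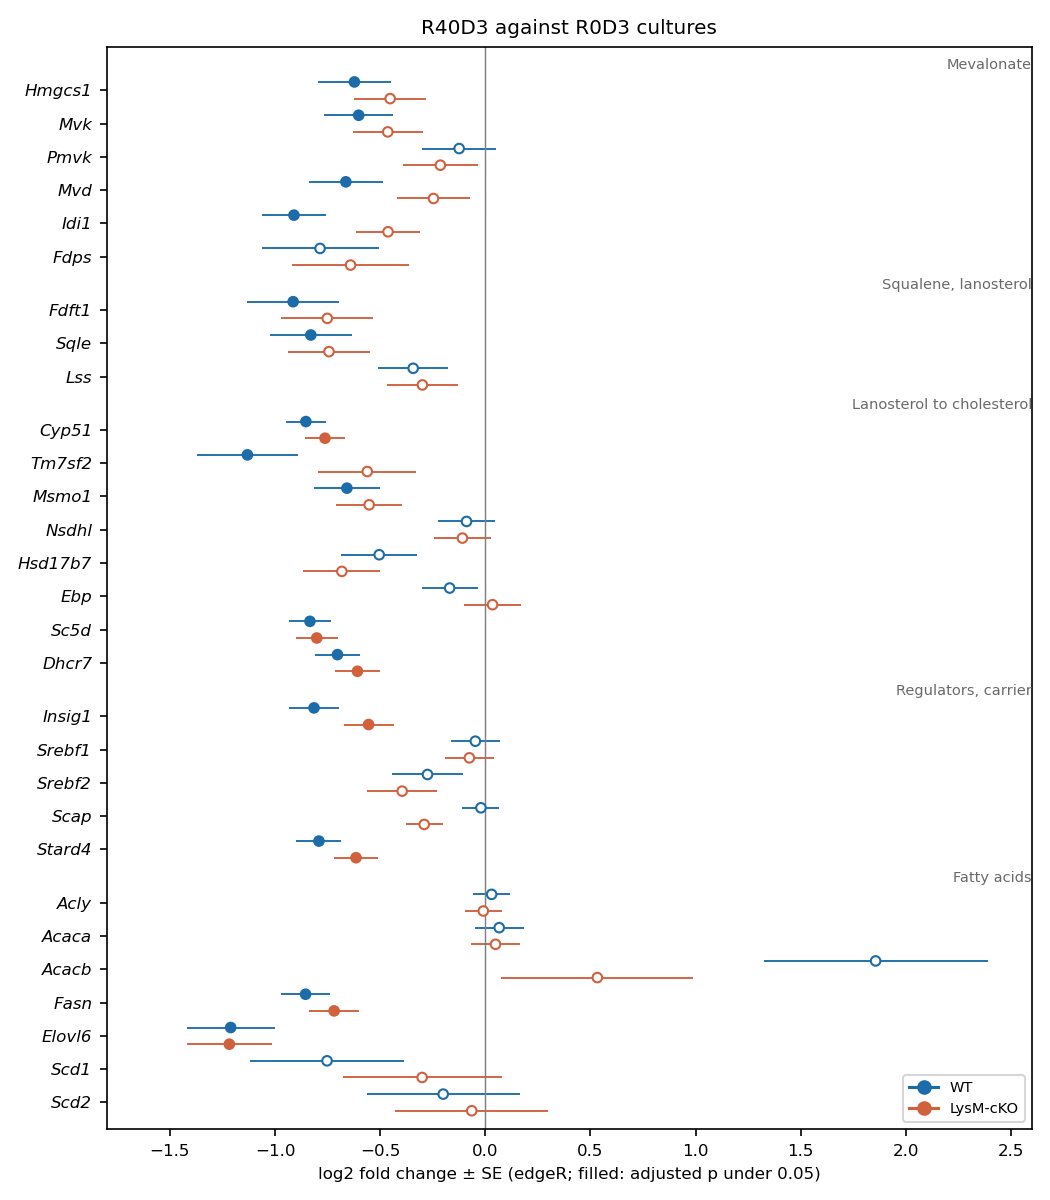
Log2 fold change of R40D3 against R0D3 for each of the 29 genes (rows, grouped by role) in WT (blue) and LysM-cKO (orange) cultures. Bars are ± 1 standard error of the edgeR fit and filled points have an adjusted p under 0.05. The 15 filled WT points and 7 filled LysM-cKO points all lie left of 0, and Acacb is the point farthest right.

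Of the mevalonate genes, 4 of 6 fell in WT. Hmgcs1, which joins acetyl-CoA units into HMG-CoA, was at 154 and 179 CPM in the WT R0D3 libraries and at 89.4 and 127 in R40D3. Both R40D3 libraries lay below both R0D3 libraries, and the log2 fold change was −0.62 (SE 0.17, edgeR adjusted p 0.0473). The call lay at the threshold: the adjusted p was 0.0541 without the filter and 0.0502 with the older quasi-likelihood method, and the value was −0.94 without WT R40D3 replicate 2. Idi1, the isomerase that makes the prenyl starter dimethylallyl diphosphate, went from 17.5 and 18.7 to 8.47 and 10.8 CPM, the widest separation of the group (log2 fold change −0.91, SE 0.15, edgeR adjusted p 0.00728). Mvk, mevalonate kinase, was at 18.9 and 25.1 CPM in R0D3 and 13.8 and 15.2 in R40D3 (log2 fold change −0.60, edgeR adjusted p 0.0435). Without WT R0D3 replicate 2 the Mvk value was −0.39 and did not pass. Mvd, the decarboxylase of the branch, was at 30.6 and 38.7 CPM in R0D3 and 18.6 and 25.3 in R40D3 (log2 fold change −0.66, edgeR adjusted p 0.0393). No library overlapped between cultures for these 4 genes. How many of all genes separate the WT libraries in this way was not counted, here or for the genes below. Called genes were picked by p, so the separation adds no further evidence for them. Fdps was at 39.6 and 56.4 CPM in R0D3 and 20.9 and 34.9 in R40D3, with replicate 2 higher in both cultures. Its log2 fold change of −0.79 did not pass (edgeR adjusted p 0.101) and passed with the replicate block (adjusted p 8.00e-04) and by DESeq2 (adjusted p 0.0327). Without 1 library it ran from −1.24 (WT R40D3 replicate 2 left out) to −0.49 (WT R40D3 replicate 1 left out), and it was −0.51 without WT R0D3 replicate 2. Pmvk, the kinase between Mvk and Mvd, gave −0.12 (edgeR adjusted p 0.699) and its libraries overlapped. Of transcript windows of 50 bases, 23.4% for Fdps, 17.7% for Idi1 and 10.0% for Hmgcs1 also occur in a single other annotated gene (Gm43738, Gm13502 and Gm48342), so reads there could have been divided.

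In the next steps, 2 of 3 genes fell in WT. Sqle encodes squalene epoxidase, a control point of the late pathway, and was at 79.2 and 90.7 CPM in R0D3 and 37.6 and 58.1 in R40D3. Fdft1 encodes squalene synthase, the first enzyme committed to sterols, and was at 36.9 and 43.5 CPM in R0D3 and 16.4 and 26.4 in R40D3. The log2 fold changes were −0.83 (SE 0.20, edgeR adjusted p 0.0270) and −0.91 (SE 0.22, edgeR adjusted p 0.0285), and in neither gene did the cultures overlap. Fdft1 overlaps the protease gene Ctsb on the other strand and shares 17.2% of its windows with it, while Ctsb itself was at −0.86 (edgeR adjusted p 0.0717). Whether reads were counted by strand is not given in the sources used here, so the Fdft1 value is uncertain. Lss, lanosterol synthase, was at 38.0 and 43.1 CPM in R0D3 and 26.6 and 37.5 in R40D3. The 2 ranges did not overlap, but the log2 fold change of −0.34 passed only with the replicate block (edgeR adjusted p 0.219 without it and 0.0471 with it). It was −0.14 without WT R40D3 replicate 1 and −0.65 without WT R40D3 replicate 2.

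From lanosterol to cholesterol, 5 of 8 genes fell in WT. Cyp51, the lanosterol demethylase, was at 107 and 109 CPM in R0D3 and 55.4 and 64.3 in R40D3, with the smallest p among the 29 genes (log2 fold change −0.85, SE 0.09, edgeR adjusted p 0.00161). Sc5d, the lathosterol oxidase, was at 71.9 and 65.7 CPM in R0D3 and 36.1 and 41.1 in R40D3 (log2 fold change −0.83, SE 0.10, edgeR adjusted p 0.00214). For both genes the replicates of a culture lay close together and the cultures far apart. Dhcr7, the reductase of the last step of one branch, was at 56.8 and 58.6 CPM in R0D3 and 35.4 and 35.5 in R40D3 (log2 fold change −0.70, edgeR adjusted p 0.00491). Msmo1, a methylsterol oxidase, was at 177 and 194 CPM in R0D3 and 97.7 and 137 in R40D3 (log2 fold change −0.66, edgeR adjusted p 0.0272). Tm7sf2, a sterol reductase, was at 9.09 and 12.6 CPM in R0D3 and 4.24 and 5.68 in R40D3 (log2 fold change −1.13, edgeR adjusted p 0.0173). It shares 9.87% of its windows with its neighbour Vps51, which was at −0.12 (edgeR adjusted p 0.443). Hsd17b7, a sterol ketone reductase, was at 23.4 and 21.9 CPM in R0D3 and 13.5 and 18.5 in R40D3, and its log2 fold change of −0.50 passed only with the replicate block (edgeR adjusted p 0.104 and 0.0412). It was −0.32 without WT R40D3 replicate 1 and −0.79 without WT R40D3 replicate 2. Nsdhl and Ebp, the dehydrogenase and the isomerase of this stretch, gave −0.09 and −0.17 and passed in neither fit (edgeR adjusted p 0.721 and 0.458).

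Among the regulators and the carrier, Insig1 and Stard4 fell in WT. Insig1, the retention partner of Scap, was at 169 and 172 CPM in R0D3 and 86.6 and 107 in R40D3. Stard4, a cytosolic sterol carrier, was at 83.2 and 91.8 CPM in R0D3 and 45.9 and 55.3 in R40D3. Both genes separated the cultures in every WT library, with log2 fold changes of −0.81 (SE 0.12, edgeR adjusted p 0.00451) and −0.79 (SE 0.11, edgeR adjusted p 0.00342). The genes for the SREBP machinery itself gave smaller values. Srebf2, the sterol-dedicated factor, was at 224 and 244 CPM in R0D3 and 167 and 219 in R40D3, a log2 fold change of −0.27 that passed only with the replicate block (edgeR adjusted p 0.327 and 0.0252). It was −0.12 without WT R40D3 replicate 1 and −0.53 without WT R40D3 replicate 2. Srebf1, the factor tied more to fatty acids, was at 54.9 and 63.8 CPM in R0D3 and 54.9 and 60.0 in R40D3 (−0.05, 95% interval −0.32 to 0.22, edgeR adjusted p 0.833). Scap was at 40.6 and 38.6 CPM in R0D3 and 39.5 and 38.5 in R40D3 (−0.02, interval −0.23 to 0.18, edgeR adjusted p 0.908). The libraries of the 2 cultures overlapped for Srebf1 and Scap, and their intervals bound any change of transcript level, not the activity of the proteins.

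The fatty acid genes split. Fasn, fatty acid synthase, was at 92.9 and 107 CPM in WT R0D3 and 50.4 and 60.2 in R40D3 (log2 fold change −0.85, SE 0.12, edgeR adjusted p 0.00375). Elovl6, which lengthens its product, was at 13.8 and 13.2 CPM in R0D3 and 5.65 and 6.05 in R40D3 (log2 fold change −1.21, SE 0.21, edgeR adjusted p 0.00822). In contrast to these, the enzymes that supply the building blocks stayed within a narrow range. Acly, which releases acetyl-CoA from citrate, was at 232 and 241 CPM in R0D3 and 234 and 248 in R40D3 (0.03, interval −0.17 to 0.23, edgeR adjusted p 0.860). Acaca, which makes malonyl-CoA, was at 33.0 and 32.9 CPM in R0D3 and 33.3 and 35.7 in R40D3 (0.07, interval −0.21 to 0.34, edgeR adjusted p 0.764). Of the Acaca windows of 50 bases, 29.2% also occur in Gm5182, so reads there could have been divided. Acacb, the mitochondrial counterpart of Acaca, had the lowest level per kilobase and the largest positive value. It was at 0.408 and 0.435 CPM in R0D3 and 1.88 and 1.16 in R40D3. Its log2 fold change of 1.86 (SE 0.53) lay just above the threshold (edgeR adjusted p 0.0534) and on either side of it under the alternatives, from 0.0318 with the replicate block to 0.245 without WT R40D3 replicate 1. The desaturases were uneven. Scd1 was at 28.8 and 30.0 CPM in R0D3 and 16.4 and 18.6 in R40D3 (−0.75, edgeR adjusted p 0.217), and Scd2 at 198 and 230.4 CPM in R0D3 and 120.3 and 252 in R40D3, where replicate 1 lay below and replicate 2 above its R0D3 partner (−0.20, edgeR adjusted p 0.770).

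**Figure D3:**
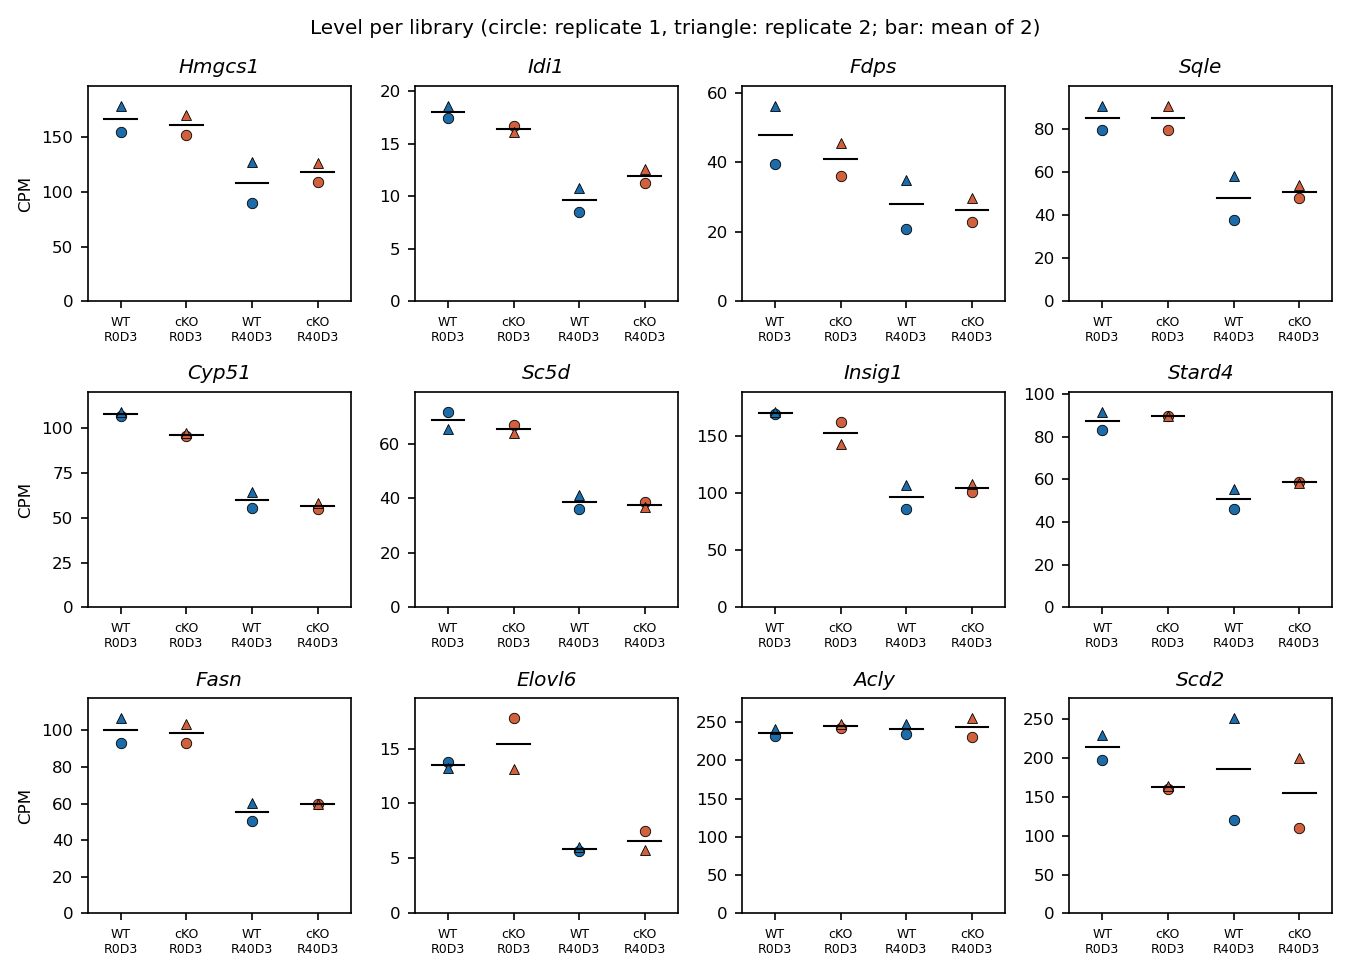
Level in CPM (y axis, from 0) in each culture library for 12 of the genes, with WT in blue and LysM-cKO in orange, circles for replicate 1, triangles for replicate 2 and bars for the mean of 2. In 10 panels, Hmgcs1 to Elovl6, all 4 R40D3 libraries lie below all 4 R0D3 libraries, whereas in Acly and Scd2 the cultures overlap.

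The WT calls differed in how far they rested on 1 library. Cyp51, Sc5d, Dhcr7, Insig1, Stard4 and Fasn passed in all 4 edgeR fits that left out 1 of the 4 WT libraries, with adjusted p up to 0.0465. Dropping replicate 1 of WT R40D3 took the count of 15 to 8, dropping replicate 1 of WT R0D3 took it to 9, and dropping replicate 2 of WT R0D3 took it to 6, with lone libraries assumed to vary like the other groups. Idi1 was lost without WT R0D3 replicate 2 (adjusted p 0.0605), and Elovl6 in 3 of the 4 fits, with adjusted p up to 0.0615. Hmgcs1, Mvk, Mvd, Fdft1, Sqle, Tm7sf2 and Msmo1 also passed in 1 of the 4, and the largest adjusted p of each ran from 0.119 (Tm7sf2) to 0.247 (Mvk). No value of the 15 changed sign, and within each replicate number all 15 were lower in R40D3. The 15 were picked by p from these same libraries, so neither point adds evidence for them. Of all 29 genes, called or not, 25 were lower in R40D3 within replicate 1 and 24 within replicate 2. The same share over all genes was not counted.

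The LysM-cKO cultures gave values in the same direction. In them 7 of the 29 genes fell (edgeR adjusted p under 0.05) and 0 rose, with 3.15% and 6.99% of all genes, and the median over the 29 was −0.46 against 0.01 over all genes. The 7 were Cyp51, Sc5d, Dhcr7, Insig1, Stard4, Fasn and Elovl6, and all 7 were also called in WT. The libraries were separate, but both sets of calls used 1 estimate of the spread from all 8 culture libraries. With the replicate block 18 fell and 0 rose, with 8.22% and 13% of all genes, and 17 genes were then called in both genotypes. Leaving out replicate 2 of LysM-cKO took the count of 7 to 2 when its R40D3 library was dropped and to 3 when its R0D3 library was. Cyp51 and Sc5d were the 2 that passed in each of the 4 edgeR fits without 1 library. DESeq2 called 11 genes, all lower, and called 4.25% of all genes lower. Fitting only the 4 LysM-cKO libraries ended the calls of Dhcr7, Insig1 and Elovl6 (edgeR adjusted p 0.0688, 0.0681 and 0.0703).

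By role, the LysM-cKO genes that fell were 3 of the 8 from lanosterol to cholesterol, 2 of the 5 regulators and carriers and 2 of the 7 fatty acid genes. Cyp51 was at 95.6 and 97.1 CPM in R0D3 and 55.1 and 58.5 in R40D3 (log2 fold change −0.76, SE 0.09, edgeR adjusted p 0.00401). Sc5d was at 67.1 and 64.2 CPM in R0D3 and 38.6 and 36.8 in R40D3 (−0.80, SE 0.10, edgeR adjusted p 0.00410). Both repeated the wide gap seen in WT. Dhcr7 was at 50.2 and 60.4 CPM in R0D3 and 36.3 and 36.2 in R40D3 (−0.61, edgeR adjusted p 0.0133). Insig1 was at 163 and 144 CPM in R0D3 and 101 and 108 in R40D3 (−0.56, edgeR adjusted p 0.0279), and passed in none of the 4 fits without 1 library (adjusted p 0.0682 to 0.131). Stard4, at 89.6 and 89.9 CPM in R0D3 and 58.8 and 58.5 in R40D3, had nearly equal replicates (−0.61, edgeR adjusted p 0.0133). Fasn was at 93.3 and 103 CPM in R0D3 and 59.7 and 59.9 in R40D3 (−0.72, edgeR adjusted p 0.0112), and Elovl6 at 17.8 and 13.1 CPM in R0D3 and 7.51 and 5.73 in R40D3 (−1.22, edgeR adjusted p 0.0117). No library overlapped between cultures in any of the 7 genes. These were picked by p, and the share of all genes without such overlap in LysM-cKO was not counted.

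None of the 6 mevalonate genes and none of the 3 squalene and lanosterol genes passed in LysM-cKO by edgeR without the block, and 4 and 2 of them did with it. Hmgcs1 was at 152 and 170.1 CPM in R0D3 and 109 and 126 in R40D3 (−0.45, edgeR adjusted p 0.159, 0.00845 with the block). Sqle, at 79.6 and 90.6 CPM in R0D3 and 47.8 and 53.9 in R40D3, missed the threshold narrowly (−0.74, edgeR adjusted p 0.0555, 0.00236 with the block). In these genes too every R40D3 library was below every R0D3 library of the genotype. Idi1 was at 16.7 and 16.1 CPM in R0D3 and 11.3 and 12.6 in R40D3 (−0.46, 0.104 and 0.0383 as edgeR adjusted p without and with the block). Fdps was at 36.2 and 45.7 CPM in R0D3 and 22.7 and 29.9 in R40D3 (−0.64, edgeR adjusted p 0.217 and 0.00377). With the block Mvk, at −0.46, had an edgeR adjusted p of 0.0464 and Fdft1, at −0.75, one of 0.0146, while Ctsb, which overlaps Fdft1, was at −0.75 (edgeR adjusted p 0.143). Among later steps Tm7sf2, Msmo1 and Hsd17b7 behaved alike in the fits, with −0.56, −0.55 and −0.68 and edgeR adjusted p of 0.0421, 0.00601 and 0.0190 with the block. Without it DESeq2 called 4 of these genes, namely Fdft1, Sqle, Msmo1 and Hsd17b7. Sqle also passed when only the 4 LysM-cKO libraries were fitted (edgeR adjusted p 0.0414), and Hsd17b7 with the filter of at least 5 CPM (edgeR adjusted p 0.0468).

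Srebf2 and Scap also passed in LysM-cKO only with the block. Srebf2 was at 219 and 264 CPM in R0D3 and 164 and 204 in R40D3 (−0.40, edgeR adjusted p 0.204, 0.00798 with the block). Without 1 library its value ran from −0.60 (LysM-cKO R40D3 replicate 2 left out) to −0.24 (LysM-cKO R40D3 replicate 1 left out), and it was −0.25 without LysM-cKO R0D3 replicate 2. Scap was at 41.6 and 43.0 CPM in R0D3 and 33.5 and 35.7 in R40D3 (−0.29, edgeR adjusted p 0.0858, 0.0378 with the block), and 9.96% of its windows also occur in 5830462I19Rik on the other strand. Srebf1 gave −0.08 (interval −0.35 to 0.20, edgeR adjusted p 0.761). Of the remaining genes, Pmvk, Mvd, Lss, Nsdhl, Ebp, Acly, Acaca, Acacb, Scd1 and Scd2 passed in neither fit, with log2 fold changes from −0.30 (Scd1) to 0.53 (Acacb).

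Whether the culture difference itself depended on genotype was tested as an interaction. It was called for 0 of the 29 genes by edgeR and by DESeq2, with 0 at an unadjusted p under 0.05 (0% of all genes called by either tool and 1.77% at an unadjusted p under 0.05). The 8 genes called in WT alone all had negative values in LysM-cKO. In 19 of the 29 genes the LysM-cKO value was the higher of the pair. The 3 smallest p belonged to Scap, Idi1 and Acacb. Idi1 had a difference between the genotypes' log2 fold changes of 0.45 (interval −0.05 to 0.95, edgeR adjusted p 1.000). That of Scap was −0.27 (interval −0.56 to 0.02), and that of Acacb −1.32 (interval −3.02 to 0.37), both also with an edgeR adjusted p of 1.000. Idi1 was at 0.28 without WT R40D3 replicate 1, and Acacb at −0.87 without LysM-cKO R0D3 replicate 2. For Cyp51 the difference was 0.09 (interval −0.22 to 0.40) and for Fasn 0.14 (interval −0.25 to 0.52).

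Taking genotypes together, 18 of the 29 genes had all 4 R40D3 libraries below all 4 R0D3 libraries, against 12% of all genes. For 0 of the 29 they were above, and the share of all genes with them above is not reported here. The 18 comprised 5 of 6 mevalonate genes, all 3 squalene and lanosterol genes, 6 of 8 later sterol genes, Insig1, Stard4, Fasn and Elovl6. Pmvk, Nsdhl, Ebp, the 2 Srebf genes, Scap and the other 5 fatty acid genes were outside it.

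Other genes of lipid metabolism gave context. Of 22 further sterol and fatty acid synthesis genes, 21 were tested in the cultures. In WT 7 fell and 1 rose, and in LysM-cKO 5 fell and 0 rose (edgeR without the block), with medians of −0.24 and −0.26. With the block 10 fell and 2 rose in WT, and 8 fell and 1 rose in LysM-cKO. Acat2, a thiolase that makes acetoacetyl-CoA, fell in WT with a log2 fold change of −0.88 (interval −1.27 to −0.50, edgeR adjusted p 0.0112). Fads2, a fatty acid desaturase, was at 25.9 ± 4.81 CPM in WT R0D3 and 10.4 ± 0.347 in WT R40D3 (SD, n = 2) with −1.31 (edgeR adjusted p 0.00598).

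Of 8 genes of fatty acid uptake and storage, 6 fell in WT and 5 in LysM-cKO, and 0 rose (edgeR). Their medians were −0.98 and −1.15. Cd36, a fatty acid uptake receptor, was at 1859 ± 102 CPM in WT R0D3 and 325 ± 42.0 in WT R40D3 (SD, n = 2; log2 fold change −2.52, edgeR adjusted p 1.73e-04). Lpl, lipoprotein lipase, was at 2199.8 ± 69.2 and 388 ± 57.1 CPM (SD, n = 2; −2.50, edgeR adjusted p 0.00225). Both values exceeded in size those of all 29 synthesis genes. Of 14 genes of sterol sensing, export and storage, 5 fell in each genotype and 0 rose by edgeR without the block. With it 6 fell and 2 rose in WT, and 7 fell and 1 rose in LysM-cKO. Lipa, the lysosomal acid lipase, gave −0.86 in WT and Mylip, an LXR target, −0.68 (edgeR adjusted p 0.00713 and 0.00510). Of 13 genes on the branches from farnesyl diphosphate to protein prenylation, dolichol and ubiquinone, 0 fell in either genotype by edgeR without the block. With the block 1 fell and 2 rose in WT, and 0 fell and 2 rose in LysM-cKO. Without the block Rabggtb, a subunit of Rab prenyltransferase, rose in WT (0.46, edgeR adjusted p 0.0456), and 0 rose in LysM-cKO.

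Several marker lists moved with the culture difference. All 10 osteoclast markers rose in both genotypes (edgeR), from 325–415 to 13189–24833 CPM in LysM-cKO. Of 8 macrophage markers 2 fell in WT and 3 in LysM-cKO, while the 8 summed to 7300–8036 CPM in WT R40D3. All 12 cell cycle genes had values below 0 in both genotypes, 1 of them called in each, and they summed to 394–546 CPM in WT R0D3 and 268–285 in WT R40D3. In LysM-cKO they summed to 510–1079 CPM in R0D3, replicate 2 being the highest, and to 304–526 in R40D3, and with the block 7 of the 12 fell there and 2 in WT. The 6 neutrophil markers had 0 calls by edgeR in either genotype and were highest in WT replicate 1, at 225 CPM in R0D3 and 297 in R40D3 against 49.3–113 in the other 6 culture libraries. The 6 adipocyte markers summed to at most 3.05 CPM in any culture library, with 3 to 5 of the 6 at 0. Stromal fibroblast markers had 0 calls in either genotype by edgeR without the block. The part of these marker lists in the fall of the synthesis genes was not tested.

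No difference between genotypes was detected for these genes in the cultures. At R40D3 0 of the 29 were called in LysM-cKO against WT by edgeR and 0 by DESeq2, with 0 at an unadjusted p under 0.05 (0.0143% of all genes called by edgeR and 0.164% by DESeq2, 7.47% at an unadjusted p under 0.05). At R0D3 0 were called by edgeR and 0 by DESeq2, again with 0 at an unadjusted p under 0.05 (0.0143% of all genes called by edgeR and 0.0499% by DESeq2, 4.42% at an unadjusted p under 0.05). The medians were 0.00 and −0.06. At R0D3 21 of the 29 values were below 0 and 8 above, against 15 and 14 at R40D3. Of the 17 enzymes of cholesterol synthesis, 16 were below 0 and 1 above at R0D3. Their median there was −0.08, against 0.01 over all genes. The 95% intervals excluded a 2-fold change for 26 of the 29 genes in each comparison and a 1.5-fold change for 18 at R40D3 and 20 at R0D3. These comparisons use the libraries of the culture comparison again.

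At R40D3 the 3 smallest p were those of Stard4, Scap and Idi1. Stard4 was at 45.9 and 55.3 CPM in WT and 58.8 and 58.5 in LysM-cKO, or 0.21 on the log2 scale (SE 0.11, edgeR adjusted p 0.656). Idi1 was at 8.47 and 10.8 CPM in WT and 11.3 and 12.6 in LysM-cKO (0.31, SE 0.16), and Scap at 39.5 and 38.5 CPM in WT and 33.5 and 35.7 in LysM-cKO (−0.17, SE 0.09), with the same edgeR adjusted p. The libraries did not overlap in any of the 3, but these genes were picked by p, so the separation adds no evidence. Of the 29 genes, both LysM-cKO libraries lay above both WT libraries for 4 and below for 1. The share of all genes was not counted, so these counts show no difference of the 29 genes as a set. WT replicate 1 was the lowest of the 4 libraries for Stard4 and Idi1, and without it their values were 0.08 and 0.13. Without WT replicate 2 they were 0.36 and 0.50, and Scap was at −0.11 without LysM-cKO replicate 1. The intervals of sterol enzymes differed in width, from Cyp51 (−0.07, interval −0.30 to 0.15) and Sc5d (−0.03, interval −0.27 to 0.20) to Fdft1 (0.07, interval −0.46 to 0.59), Fdps (−0.08, interval −0.74 to 0.58) and Tm7sf2 (0.37, interval −0.21 to 0.96). Beside this, the summed osteoclast markers were lower in LysM-cKO R40D3 (13189–24833 CPM) than in WT R40D3 (26292–38759 CPM), with 0 of 10 called by edgeR without the block.

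At R0D3 the 3 smallest p were those of Acacb, Scd1 and Cyp51. Acacb was at 0.408 and 0.435 CPM in WT and 0.690 and 1.21 in LysM-cKO (1.15, SE 0.60, edgeR adjusted p 0.997), and without LysM-cKO replicate 2 the value was 0.70. Scd1 was at 28.8 and 30.0 CPM in WT and 22.0 and 14.3 in LysM-cKO (−0.69, SE 0.37, edgeR adjusted p 0.997). Its lowest culture levels, 14.3 CPM in R0D3 and 8.38 in R40D3, were those of LysM-cKO replicate 2, the libraries with 581 and 491 CPM of stromal fibroblast markers. Without LysM-cKO replicate 2 the value was −0.42, and without replicate 1 −1.06. The part of those cells in the Scd1 value was not tested. Cyp51 was at 107 and 109 CPM in WT and 95.6 and 97.1 in LysM-cKO (−0.17, SE 0.09, edgeR adjusted p 0.997).

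**Figure D4:**
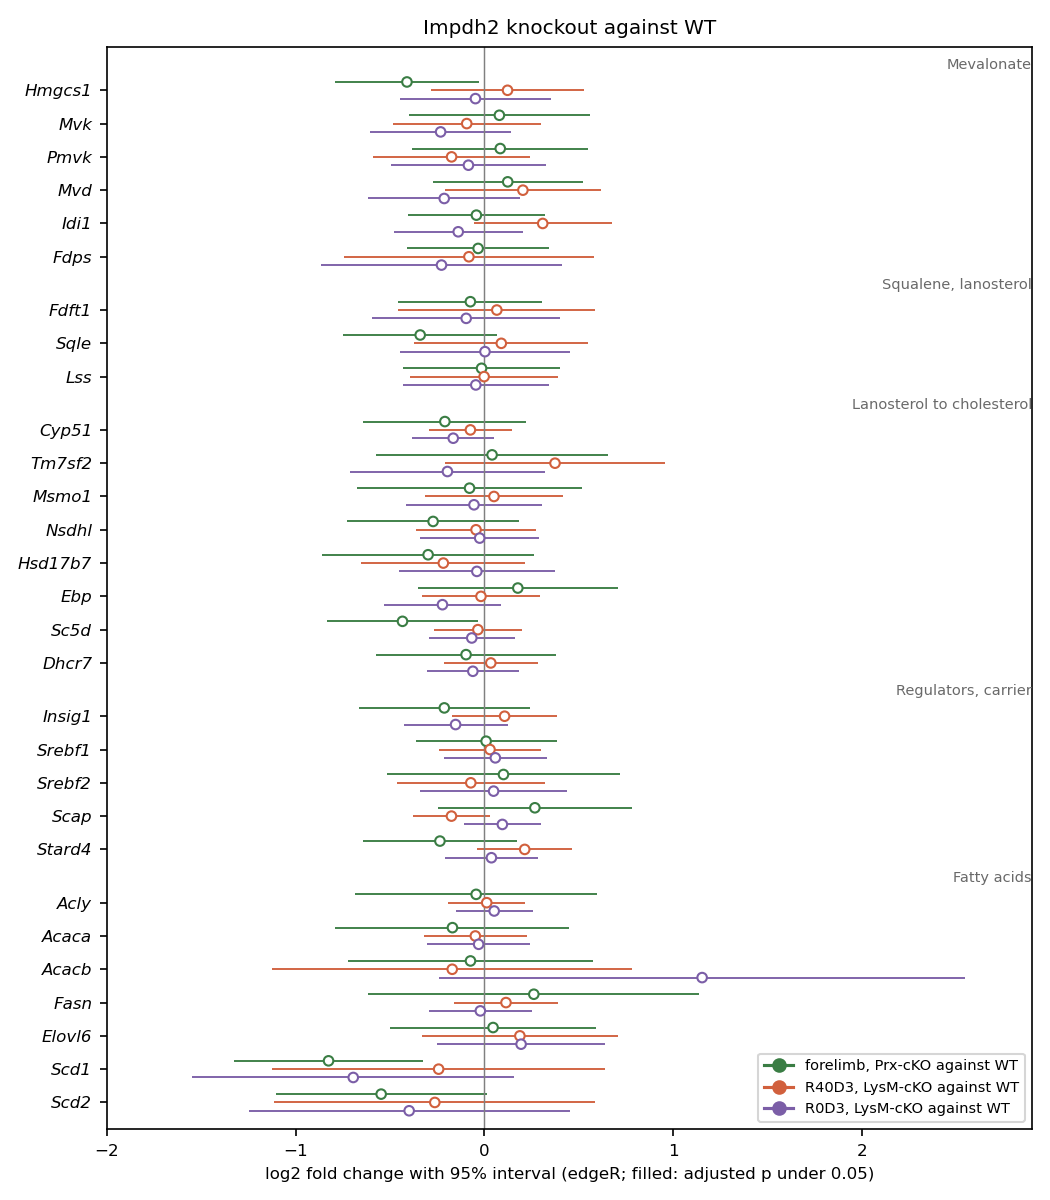
Log2 fold change of Impdh2 knockout against WT for each of the 29 genes in the forelimb (green), R40D3 cultures (orange) and R0D3 cultures (purple), with 95% intervals from edgeR. Open points did not pass an adjusted p of 0.05, and no point is filled. Forelimb Scd1 (−0.83) is the leftmost forelimb point.

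In the forelimb edgeR called 0 of the 29 genes in Prx-cKO against WT, and 0% of all 19987 genes. By edgeR 3 of them had an unadjusted p under 0.05, namely Scd1, Sc5d and Hmgcs1, against 10.5% of all genes, and DESeq2 called 1, Scd1 (adjusted p 0.0456), and 1.95% of all genes. Scd1, a stearoyl-CoA desaturase that makes monounsaturated fatty acids, was at 60.5 and 65.3 CPM in WT and 30.4 and 40.5 in Prx-cKO. Both Prx-cKO libraries lay below both WT libraries, at −0.83 on the log2 scale (SE 0.20, interval −1.33 to −0.33, edgeR adjusted p 0.414). Over the 4 fits without 1 library it ran from −1.05 to −0.63. Scd2, the related desaturase that was the most abundant of the 29 per kilobase here, was at 948 and 1182 CPM in WT and 631 and 827 in Prx-cKO (−0.55, SE 0.22, edgeR adjusted p 0.478). The groups did not overlap for Scd2 either. Of the Scd2 windows of 50 bases, 2.66% also occur in Scd1.

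Hmgcs1 was at 209 and 228 CPM in WT forelimbs and 155 and 174 in Prx-cKO (−0.41, SE 0.15, edgeR adjusted p 0.470). Sc5d was at 54.4 and 48.5 CPM in WT and 38.4 and 37.7 in Prx-cKO (−0.43, SE 0.16, edgeR adjusted p 0.469). In both, the Prx-cKO libraries were the lower pair. This held for 9 of the 29 genes, and in 1 they were the higher pair. The share of all genes was not counted, so these counts do not show a fall of the 29 genes as a set. The regulators gave 0.01 for Srebf1 (interval −0.37 to 0.38), 0.10 for Srebf2, 0.27 for Scap and −0.21 for Insig1. Some genes varied more between replicates than between genotypes. Fasn was at 191 and 337 CPM in WT and 249 and 384 in Prx-cKO, with replicate 2 the higher in both (0.26, interval −0.62 to 1.14). Acly, at 214 and 327 CPM in WT and 233 and 292 in Prx-cKO, and Srebf2, at 223 and 314 CPM in WT and 247 and 329.6 in Prx-cKO, showed the same order of replicates. The 95% interval excluded a 1.5-fold change for 9 of the 29 genes and a 2-fold change for 26, which limits what 2 libraries a group could show.

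The summed levels of cell type markers were not alike in the forelimb groups. The 7 cartilage markers summed to 849–960 CPM in WT and 300–365 in Prx-cKO, all 7 with values below 0. The 8 limb mesenchyme markers summed to 1541–1717 and 1112–1163 CPM, but 5 had values below 0 and 3 above (−1.17 to 0.23). The 7 skeletal muscle markers summed to 316–332 and 426–892 CPM, with 6 values above 0 and 1 below. The 6 endothelium markers summed to 118–124 CPM in WT and 159.9–165 in Prx-cKO, with all 6 values above 0. The 5 B cell markers summed to 46.3–91.3 CPM in WT and 7.48–10.1 in Prx-cKO, but did not move together. Only 3 of the 5 were tested, with 2 values below 0 and 1 above (−3.61 to 1.29, median −0.11). In each forelimb library 3 or 4 of the 5 were under 1 CPM. None of these lists had a gene called by edgeR. The 6 adipocyte markers summed to at most 0.557 CPM in any forelimb library, and 2 to 4 of the 6 were at 0. The part of cell composition in the Scd1 and Scd2 values was not tested.

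**Figure D5:**
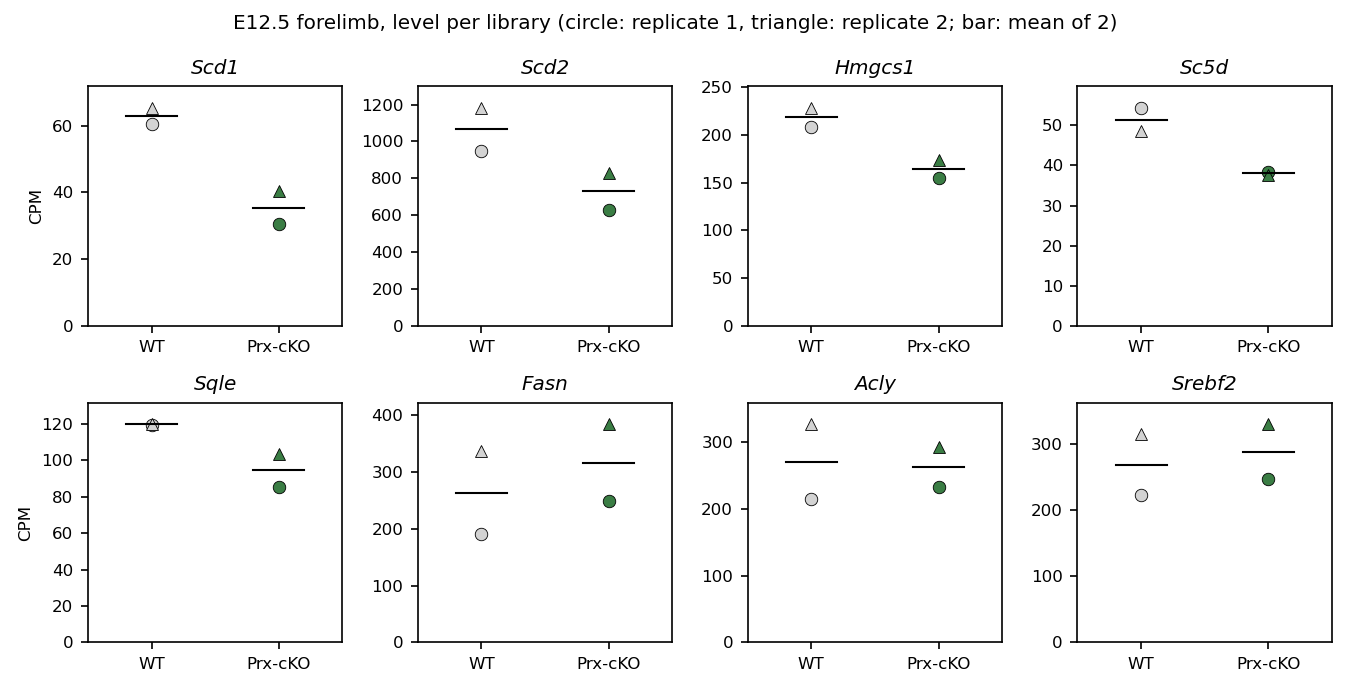
Level in CPM (y axis, from 0) in each forelimb library for 8 of the genes, with WT in grey and Prx-cKO in green, circles for replicate 1, triangles for replicate 2 and bars for the mean of 2. For Scd1, Scd2, Hmgcs1, Sc5d and Sqle both Prx-cKO points lie below both WT points, whereas Fasn, Acly and Srebf2 overlap and are higher in replicate 2.

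Levels per kilobase of exon allow the genes to be compared with each other. In WT R0D3 cultures Insig1 was the highest at 55.1 ± 0.574 CPM per kilobase (SD, n = 2), followed by Acly at 44.7 ± 1.22, Scd2 at 39.2 ± 4.25 and Hmgcs1 at 36.2 ± 3.77. Scd2 and Hmgcs1 differed by less than their spread. Acacb was the lowest at 0.0438 ± 0.00202. In WT R40D3 cultures Acly led at 45.7 ± 1.91, with Scd2 at 34.1 ± 17.1 and Insig1 at 31.3 ± 4.71, and the spread of Scd2 covered both of the others. In WT forelimbs Scd2 led at 195 ± 30.4, followed by Acly at 51.3 ± 15.1 and Hmgcs1 at 47.5 ± 3.03, which overlapped. Insig1 was at 21.8 ± 0.347 there, and Msmo1 at 7.06 ± 1.57 against 30.2 ± 2.04 in WT R0D3. The forelimb and culture data were scaled separately, so these levels across them are a description only.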

How the data were processed

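RNA was sequenced from 4 forelimb and 8 culture libraries. The authors deposited whole-number read counts per Ensembl gene. Per the submitters' processing notes, FastQC 0.11.2, Trimmomatic 0.36, HISAT2 2.1.0, DESeq2 1.12.4 and the build GRCm38 were used. The counting tool, annotation and use of strand are not given in the sources used here. Symbols were matched for 99.6% of forelimb and 99.5% of culture identifiers. Positions and exon lengths are from GENCODE M21.

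Counts were filtered (filterByExpr), scaled (TMM) and fitted over all genes with the quasi-likelihood test of edgeR 4.0.16 (R 4.3.3, legacy = FALSE), two-sided, with Benjamini-Hochberg adjustment over the 19987 forelimb or 14030 culture genes and a threshold of 0.05. Forelimbs (4 libraries) and cultures (8) had a model each. Standard errors were taken from the fold change and its F statistic. Alternatives were DESeq2 1.42.0, other scalings and filters, the older quasi-likelihood method, the 4 compared libraries alone, a replicate block and leaving out each library. The scripts were tested on simulated counts.

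Libraries with the same number deviated together from the group means in all 6 pairs of culture groups (r 0.343 to 0.609), so the numbers were taken to pair them. The culture counts were also deposited separately for each replicate number. The labels do not state that the numbers mark shared animals, so the pairing was taken from the data. No replicate pair agreed within counting noise (chi-square per degree of freedom at least 10.7).

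The members and gene lists were chosen with earlier results of these data known. Values are given for members called with or without the block, the 3 smallest p per comparison, Srebf1, Srebf2, Scap, Insig1 and Impdh2. Named genes of other lists are among their 3 smallest p, and some that the rule names are not reported here. Ectoderm and erythroid markers, also summed, had 0 calls in the forelimb by edgeR and overlapped between genotypes (599–728 CPM in WT and 724–796 in Prx-cKO for ectoderm, 2665–3786 and 2726–3492 for erythroid).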

Additional observations from a re-analysis of the deposited data

How the results depend on the processing

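Each comparison was recomputed under every alternative. None of the single-gene values changed sign against a call, and the counts of called genes stayed within 1.5 times of the reported ones in 66 of 74 recomputations. The exceptions were these. DESeq2 called 1 gene in the forelimb in place of 0 and 11 in LysM-cKO R40D3 against R0D3 in place of 7. With the replicate block 18 genes were called in LysM-cKO. Without 1 library the WT count of 15 ran from 6 to 12 and the LysM-cKO count of 7 from 2 to 6. Among single genes, 42 recomputed values lost a call and 27 gained one, against 534 that kept their side of the threshold. The replicate block, taken as a paired analysis, gave 20 calls in WT and changed no call in the genotype comparisons or the interaction, which stayed at 0. In the forelimb the replicate numbers are only shared numbers (r 0.261), and the block gave 0 calls.

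The design has 2 libraries a group, and a test that did not pass does not show that levels were equal. The intervals of Acacb, Scd1 and Scd2 were the widest in the culture comparisons and that of Fasn in the forelimb. Fdft1, Tm7sf2, Fdps, Idi1, Hmgcs1, Acaca and Scap share sequence with overlapping genes or copies.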
